A study of Mus musculus with 8 samples.

Results

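The genes described here lie around Ezh2 on mouse chromosome 6, outside Ezh2 itself and the Hoxa cluster. They were chosen by name, 59 in all, and 56 had a probe set that carries their symbol alone. These 56 are among 22180 genes measured in the series. Where a gene had several probe sets, the brightest on average over the 8 arrays stands for it, and that average is the only measured value in the rule. The names themselves were proposed with results of these arrays already known, and they are not a full list of the genes in the interval, so a count over them is a description. Zfp425, Pdia4 and Rarres2 had no probe set of their own. Pdia4 shares 1 with Mir704, and Rarres2 shares 1 with Lrrc61.

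Each of 8 arrays measured the whole lungs of 1 mouse embryo, taken at embryonic day 14.5. The 4 mutant embryos were Shh-cre:Ezh2-flox/flox and the 4 control embryos were Shh-cre, both on a mixed C57BL/6 x 129S6 background. Cre from the Shh locus, carried by every embryo of both groups, is active in the lung epithelium, so other cells of a mutant lung keep Ezh2, while all its cells carry the floxed alleles. Embryos 1 and 2 of each genotype were littermates, as were embryos 3 and 4, and no litter held both genotypes.

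Ezh2 encodes the enzyme with which the Polycomb complex PRC2 methylates histones, a mark of silenced genes. A floxed allele is made in embryonic stem cells, and in later crosses the DNA beside it travels with it, so animals selected for the allele can differ from controls in linked genes too. Genes close to Ezh2 show how expression differs in that neighbourhood. The strain of origin of chromosome 6 was not measured in these embryos. All 4 mutants carry both the floxed alleles and whatever DNA is linked to them, so an effect of losing Ezh2 and an effect of linked DNA cannot be told apart by this design.

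Arrays had median log2 values of 7.05 to 7.12. Xist, which is transcribed from an inactive X chromosome, lay at 12.61 to 13.00 in 5 embryos and at 6.37 to 6.74 in controls 1 and 2 and in mutant 3. Lung epithelium markers, 8 of 8 measured, had a mean log2 level of 10.46 to 10.59 in controls and 10.43 to 10.51 in mutants. Of these 8, 2 had a positive difference, mutant minus control. Mesenchyme markers, 6 of 6 measured, ran from 11.02 to 11.21 in controls and from 11.19 to 11.27 in mutants, with 6 of 6 positive. No gene of either list was called between the genotypes. Ezh2 itself had log2 values of 11.84, 11.93, 11.83 and 11.89 in controls 1 to 4 and of 11.80, 11.80, 11.75 and 11.77 in mutants 1 to 4. All mutants lay below all controls, but the difference of −0.09 ± 0.05 (SE) did not pass the limma test described next (adjusted p = 0.652). Whether its probes lie in the floxed exons is not given in the sources used here.

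The comparison of the genotypes used limma with litter as a random block and Benjamini-Hochberg adjustment over all 22180 genes, with an adjusted p of 0.05 as the threshold. Differences are log2 values of mutant minus control. Of the 56 members, 4 fell in mutant lungs, 0 rose and 52 did not pass. The genes that fell were Herc6, Gimap9, Gimap4 and Pyurf, with fold differences, control over mutant, of 1.53, 1.35, 1.34 and 1.31. Over all genes 0.852% were called, 0.604% higher and 0.248% lower, and of the members 7.14% were called. An unadjusted p under 0.05 was reached by 9 members, or 16.1%, against 9.87% of all genes. The median difference was −0.03 over the members and 0.01 over all genes, and 35 members were lower and 21 higher. The whole interval did not share this lean. Of all its 134 measured genes 68 were lower and 66 higher, and of the 78 unlisted ones 33 were lower and 45 higher. Without vomeronasal receptors, which are dim, 57 genes of the interval were lower and 49 higher. The members had a median log2 level of 8.19, against 6.12 for the unlisted genes and 7.56 over all genes. Whether level plays a part in the lean was not tested.

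**Figure D1:**
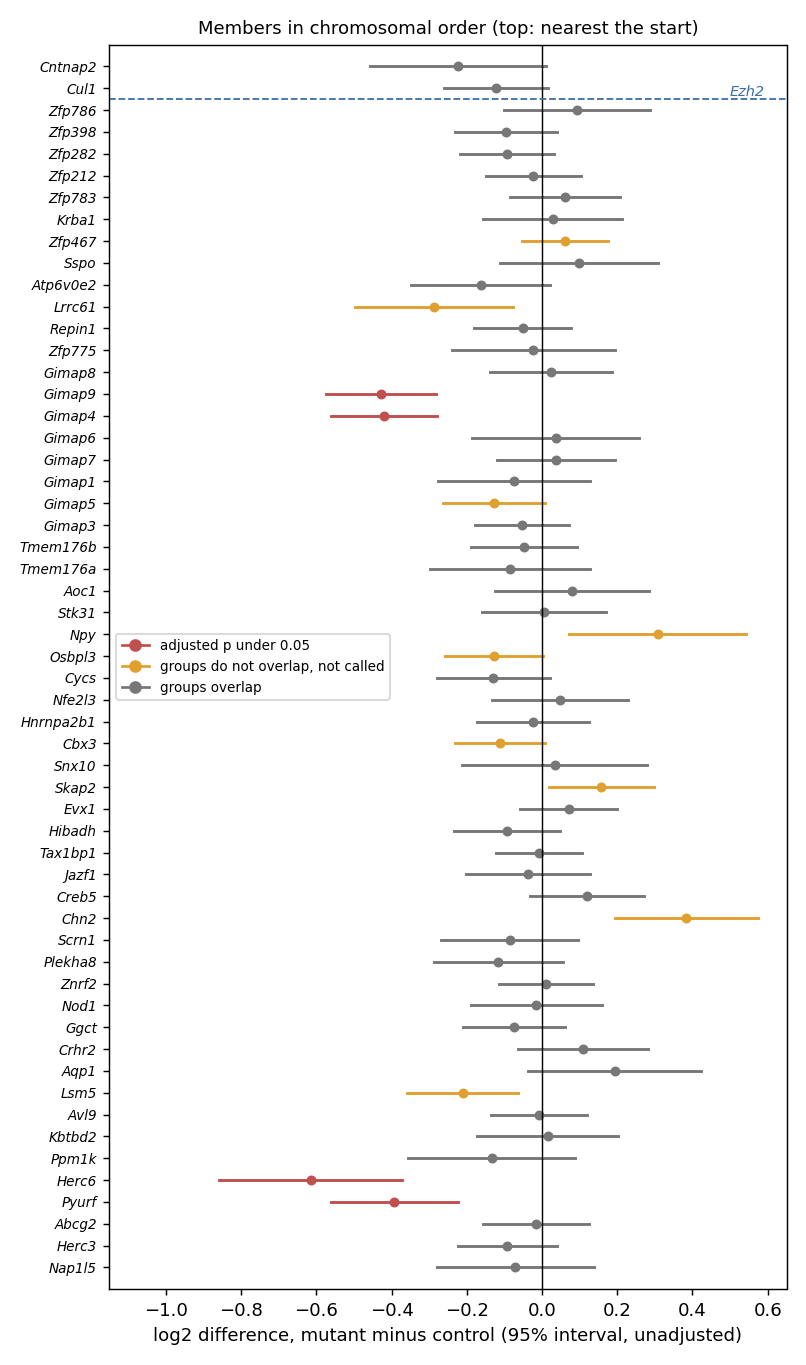
Log2 difference of each of the 56 members, mutant minus control, with its 95% interval from limma (unadjusted), in the order of the genes along chromosome 6. The dashed line marks the place of Ezh2. Red points passed the test over all genes, orange points did not but had groups that do not overlap, and the 4 red points, Gimap9, Gimap4, Herc6 and Pyurf, all lie below 0.

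The called members came as pairs of neighbours. Gimap9 and Gimap4 are the genes 24 and 25 places after Ezh2 in the order of measured genes, and Herc6 and Pyurf are 125 and 126 places after it. Whether such pairs are more than chance was not tested. To set the neighbours that fell together side by side, the 250 bases before the start of each of these genes are shown, from RefSeq on GRCm38.p6, each 5′ to 3′ on the gene's own strand. Capitals mark GC boxes (GGGCGG) and CCAAT boxes (CCAAT) on either strand.

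Gimap9 (chr6:48675885-48676134, plus strand): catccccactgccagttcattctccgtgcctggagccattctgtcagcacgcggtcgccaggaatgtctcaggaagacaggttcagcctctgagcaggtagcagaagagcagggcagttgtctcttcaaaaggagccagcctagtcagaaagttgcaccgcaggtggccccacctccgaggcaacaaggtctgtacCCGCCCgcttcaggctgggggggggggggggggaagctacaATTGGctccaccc
Gimap4 (chr6:48684328-48684577, plus strand): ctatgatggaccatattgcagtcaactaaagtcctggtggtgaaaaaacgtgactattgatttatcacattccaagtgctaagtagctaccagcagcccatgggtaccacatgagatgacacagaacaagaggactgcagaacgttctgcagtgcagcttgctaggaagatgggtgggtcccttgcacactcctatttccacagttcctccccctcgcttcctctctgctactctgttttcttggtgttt
Herc6 (chr6:57580742-57580991, plus strand): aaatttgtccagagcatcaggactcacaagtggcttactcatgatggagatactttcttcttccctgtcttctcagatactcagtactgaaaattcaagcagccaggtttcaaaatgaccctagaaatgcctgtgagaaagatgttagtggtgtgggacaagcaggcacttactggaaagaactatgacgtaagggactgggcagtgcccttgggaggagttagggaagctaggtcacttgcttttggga
Pyurf (chr6:57692079-57692328, minus strand): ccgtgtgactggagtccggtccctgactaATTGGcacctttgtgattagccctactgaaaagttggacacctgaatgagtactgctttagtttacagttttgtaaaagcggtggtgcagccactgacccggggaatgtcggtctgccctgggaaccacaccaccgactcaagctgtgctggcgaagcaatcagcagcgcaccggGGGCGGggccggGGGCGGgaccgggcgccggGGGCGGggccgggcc

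The Pyurf promoter held 3 GC boxes, 1 CCAAT box and 17 CG pairs in a sequence of 62.4% G and C. That of Gimap9 held 1 GC box, 1 CCAAT box and 8 CG pairs at 61.2%. Neither box was found in the promoters of Gimap4, with 3 CG pairs at 47.6%, or Herc6, with 1 CG pair at 46%. No match was found in the 4 windows to a TATA box (TATAAA), to the interferon-stimulated response element or to an ETS site (CCGGAAG), on either strand. Among 32851 promoter windows of the same length, 32.7% held a GC box, 33.8% a CCAAT box, 12.4% the TATA box, 2.98% the interferon element and 6.91% the ETS site, and the median window had 52.4% G and C. The neighbours of each pair thus differed in these features. A match or its absence describes only the letters of these windows.

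Among the GTPases of immunity-associated proteins, small GTP-binding proteins best known from lymphocytes and encoded in 1 cluster, 2 of 8 fell, 0 rose and 6 did not pass. The cluster had a median difference of −0.06. Gimap4 had log2 values of 9.12, 9.18, 9.21 and 9.26 in the controls and 8.75, 8.79, 8.68 and 8.85 in the mutants. Every mutant was below every control, and the embryos of a group lay close together. The controls averaged 9.19 ± 0.06 (SD, n = 4) and the mutants 8.77 ± 0.07 (SD, n = 4). By limma the difference was −0.42 ± 0.06 (SE), at an adjusted p of 0.0096. Gimap9 had values of 6.84, 6.66, 6.81 and 6.71 in the controls and 6.39, 6.35, 6.25 and 6.32 in the mutants. Again the groups did not overlap. The controls averaged 6.75 ± 0.09 (SD, n = 4) and the mutants 6.33 ± 0.06 (SD, n = 4). By limma they differed by −0.43 ± 0.07 (SE), at an adjusted p of 0.0115. Without control 4 the adjusted p of Gimap4 was 0.0575, and without mutant 4 that of Gimap9 was 0.0559, by limma, with differences of −0.40 and −0.43.

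Gimap5, which lymphocytes need to survive, lies further along the cluster. Its log2 values were 8.26, 8.28, 8.32 and 8.23 in the controls and 8.12, 8.17, 8.05 and 8.22 in the mutants. Mutant 4 reached almost to control 4, and the difference of −0.13 ± 0.06 (SE) did not pass. The remaining 5 did not separate the groups. Differences were 0.02 for Gimap8, 0.04 for Gimap6, 0.04 for Gimap7, −0.07 for Gimap1 and −0.05 for Gimap3, with 95% intervals of −0.14 to 0.19, −0.19 to 0.26, −0.12 to 0.20, −0.28 to 0.13 and −0.18 to 0.07. Gimap6 was split by litter among controls, at 7.85 in both embryos of litter 1 and at 8.29 and 8.10 in those of litter 2. The control litters thus lay 0.35 apart on average. Xist was low in litter 1 and high in litter 2, so litter and Xist level cannot be told apart there. Gimap1 had a second, dimmer probe set at 0.13, opposite in sign, and neither passed. Probes of such a family may share sequence, and this was not tested.

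**Figure D2:**
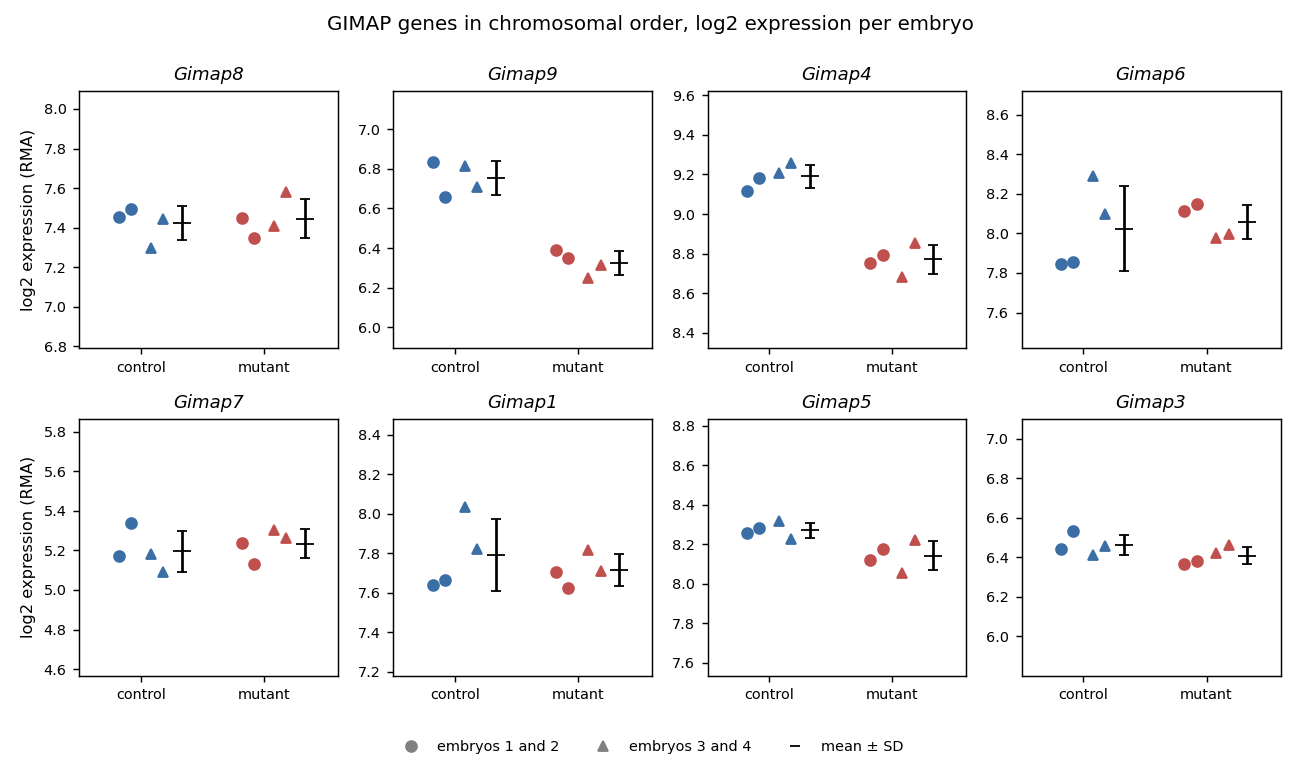
Log2 expression of the 8 GIMAP genes in each embryo, in the order of the genes along the chromosome, with circles for embryos 1 and 2, triangles for embryos 3 and 4, and the mean ± SD of 4 embryos beside them. Each panel spans the same log2 range. Gimap9 and Gimap4 separate the genotypes widely, Gimap5 narrowly, and in Gimap6 the control litters lie apart.

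Some GIMAP genes are also expressed in blood vessels, so the marker lists for endothelium and for lymphoid cells are given beside them. The 10 endothelial markers had 0 called genes, a median difference of 0.07 and a positive difference in 9 of 10. Their mean log2 level ran from 10.29 to 10.44 in controls and from 10.40 to 10.47 in mutants. The 7 measured of 10 lymphoid markers also had 0 called, with a mean level of 6.04 to 6.12 in controls and 5.98 to 6.26 in mutants. Myeloid markers, 10 of 10 measured, ran from 7.79 to 7.99 in controls and from 7.80 to 8.16 in mutants, with 0 called. The part of these cell types in the GIMAP values was not tested. In whole lungs fewer cells of a type and less RNA per cell cannot be told apart.

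Herc6 encodes a ubiquitin ligase of the HERC family that is induced by interferon. It had the largest difference of the members. The log2 values were 8.55, 8.45, 8.51 and 8.74 in the controls and 8.06, 8.07, 7.64 and 8.03 in the mutants. The groups did not overlap, and mutant 3 was far below the other mutants. The controls averaged 8.57 ± 0.12 (SD, n = 4) and the mutants 7.95 ± 0.21 (SD, n = 4), and by limma the difference of −0.62 ± 0.11 (SE) had an adjusted p of 0.0271. Without control 3, control 4 or mutant 4 the adjusted p by limma was 0.0571, 0.114 and 0.0559.

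Pyurf encodes a small mitochondrial protein. Its log2 values were 8.73, 8.79, 9.01 and 8.76 in the controls and 8.41, 8.37, 8.497 and 8.44 in the mutants. Control 3 was the highest, and the lowest control stayed above the highest mutant. Controls averaged 8.82 ± 0.13 (SD, n = 4), mutants 8.43 ± 0.05 (SD, n = 4). By limma the difference was −0.39 ± 0.08 (SE), at an adjusted p of 0.0421, the highest of the 4. It did not pass without control 2, control 4, mutant 1, mutant 2 or mutant 4, where the adjusted p by limma was 0.0817, 0.0773, 0.1, 0.062 and 0.147. Nor did Pyurf pass with the arrays centred on their medians or quantile normalized, at an adjusted p by limma of 0.0656 and 0.0574, and it was called in 14 of 28 alternatives. Averaging littermates kept only the call of Herc6, while Gimap9, Gimap4 and Pyurf had an adjusted p of 0.0746, 0.0785 and 0.123 by limma.

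**Figure D3:**
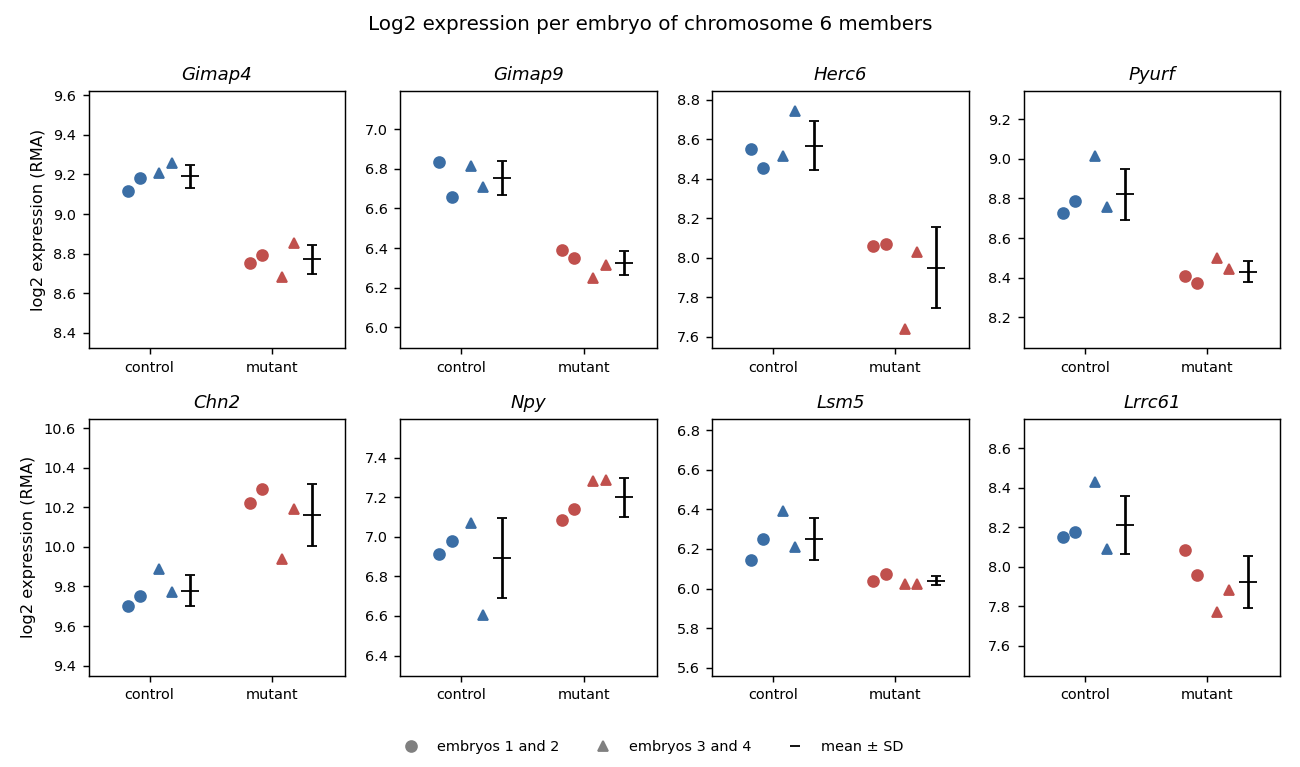
Log2 expression per embryo of the 4 called members, Gimap4, Gimap9, Herc6 and Pyurf, and of 4 members whose groups do not overlap without a call, Chn2, Npy, Lsm5 and Lrrc61. Circles are embryos 1 and 2, triangles embryos 3 and 4, the bar is the mean ± SD of 4 embryos, and each panel spans the same log2 range.

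In 13 of 56 members, or 23.2%, the 4 values of one genotype lay entirely above those of the other, 4 higher and 9 lower in mutants. Over all genes this held for 8.07%, 4.48% higher and 3.6% lower. Each of these genes has an exact permutation p of 0.0286 (two-sided), and 4 against 4 can give no smaller one. Littermates are taken there as independent. Beside the 4 called genes and Gimap5, the lower ones were Lrrc61, Osbpl3, Cbx3 and Lsm5, and the higher ones were Chn2, Npy, Skap2 and Zfp467. None of these 8 passed the test over all genes.

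Signalling genes held the 2 members with the highest positive differences, Chn2 and Npy, though 0 of 7 passed. Chn2, which encodes beta-chimaerin, a protein that switches off the GTPase Rac, had log2 values of 9.70, 9.75, 9.89 and 9.77 in controls and 10.22, 10.29, 9.94 and 10.19 in mutants. Mutant 3 lay just above control 3 and the other mutants well above. The difference of 0.38 ± 0.09 (SE) missed the threshold (limma, adjusted p = 0.0834). Leaving out each embryo in turn, Chn2 was called only without mutant 3, with a difference of 0.46 and an adjusted p of 0.0111 by limma, and without control 4 its adjusted p was 0.281. Npy, the gene of neuropeptide Y, had values of 6.91, 6.98, 7.07 and 6.61 in controls and 7.09, 7.14, 7.28 and 7.29 in mutants. Control 4 was low, control 3 nearly reached mutant 1, and the difference was 0.31 ± 0.11 (SE). Neuron and neural crest markers, 6 of 10 measured, had a mean level of 6.64 to 6.86 in controls and 6.74 to 6.88 in mutants, with 0 called. Skap2, an adaptor of Src family kinases, had a difference of 0.16 ± 0.06 (SE) around a log2 level of 10.15 in controls. Crhr2, a receptor for corticotropin-releasing hormone and urocortins, had a difference of 0.11. The kinase gene Stk31, the bacterial sensor Nod1 and the mitochondrial phosphatase Ppm1k ranged from −0.13 to 0.00, all with overlapping groups.

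Genes of ubiquitin transfer, protein handling and membrane traffic numbered 10, of which Herc6 fell and 9 did not pass. Their median difference was −0.05. Cul1, the scaffold of SCF ubiquitin ligases and the nearest measured gene before Ezh2, had log2 values of 11.09, 11.19, 11.12 and 11.08 in controls and 11.09, 11.05, 10.93 and 10.93 in mutants. Mutant 1 overlapped the controls, and the difference was −0.12 ± 0.06 (SE). Osbpl3, a lipid-binding protein, had values of 7.101 to 7.19 in controls and 6.95 to 7.07 in mutants, a difference of −0.13 ± 0.06 (SE). Tax1bp1, Avl9, Znrf2, Kbtbd2, Snx10 and Herc3, a relative of Herc6, ranged from −0.09 to 0.03. Plekha8 had −0.12 in the brighter and 0.04 in the dimmer of 2 probe sets, and neither passed.

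The zinc finger cluster next to Ezh2, with transcription factors of which many carry a KRAB repression domain, had 0 of 9 members called. Zfp786, Zfp398, Zfp282, Zfp212 and Zfp783, the members nearest to Ezh2 on that side, had differences of 0.09, −0.10, −0.09, −0.02 and 0.06. Their 95% intervals lay between −0.23 and 0.29. Zfp467 separated the groups with values of 7.56 to 7.64 in controls and 7.64 to 7.68 in mutants, but the difference was only 0.06 ± 0.05 (SE). Krba1, Repin1 and Zfp775 ranged from −0.05 to 0.03. All 9 differed by less than 0.1. Unlisted Zfp genes of the interval, named after their values were seen, went further in part. Zfp862-ps had −0.22 without overlap of the groups (limma, adjusted p = 0.271). Zfp956 had 0.13, Zfp777 0.06 and Zfp746 −0.005, with overlapping groups, and none passed.

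Metabolic, transport and mitochondrial genes had 1 called of 9, Pyurf. Aqp1, the water channel of vessels and mesothelium, had values of 9.05, 8.92, 9.42 and 9.24 in controls and 9.28, 9.31, 9.49 and 9.33 in mutants. The control litters lay 0.34 apart, more than the difference of 0.19 ± 0.10 (SE) between genotypes. Mesothelial markers, 5 of 5 measured, had a mean level of 8.12 to 8.25 in controls and of 8.28 to 8.38 in mutants, with 1 called, Upk1b at 0.46. Their part in the Aqp1 value was not tested. Atp6v0e2, a subunit of the vacuolar proton pump, had 8.13, 8.13, 8.46 and 8.21 in controls and 8.14, 8.05, 8.10 and 8.001 in mutants. Control 3 stood above the rest, mutant 1 overlapped controls 1 and 2, and the difference was −0.16 ± 0.08 (SE). The drug exporter Abcg2, Hibadh, Scrn1, Ggct and Aoc1 ranged from −0.09 to 0.08, and none passed.

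Of 8 genes of chromatin, transcription and RNA none passed. Lsm5, a subunit of the LSM ring of splicing and RNA decay, had values of 6.14, 6.25, 6.39 and 6.21 in controls and 6.04, 6.07, 6.02 and 6.02 in mutants, a difference of −0.21 ± 0.07 (SE). The mutants were tightly grouped below all controls. Creb5, a transcription factor, had a difference of 0.12, and Evx1, Nfe2l3, Hnrnpa2b1, Jazf1 and the imprinted gene Nap1l5 ranged from −0.07 to 0.07. Cbx3, the gene of the heterochromatin protein HP1 gamma, had 12.23, 12.19, 12.24 and 12.19 in controls and 12.09, 12.12, 12.05 and 12.14 in mutants, a difference of −0.11 ± 0.05 (SE). That probe set was 1 of 4 for the gene. The one numbered with its chromosomal neighbours gave −0.02, and its groups overlapped. The remaining ones gave −0.12 and −0.20, both without overlap and neither passing.

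Cycs, the gene of cytochrome c, singled out after its values were seen, showed the same division, with −0.13 in the brightest of 5 probe sets and −0.03 in the one numbered with its neighbours. Numbers of the 134 probe sets of the interval fell in 2 runs, and the brightest probe sets of Cbx3 and Cycs were the only 2 outside them, so these values may include near-identical copies elsewhere. Another 2 probe sets of Cycs held identical values, with a difference of −0.41, and the remaining one gave −0.27. The groups overlapped in these, and none passed. With the neighbour-numbered probe sets for both genes, 8 members in place of 9 were lower without overlap.

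Cntnap2, an adhesion protein of neurons, is the member farthest before Ezh2. Its values were 7.46, 7.57, 7.29 and 7.32 in controls and 7.18, 6.95, 7.43 and 7.19 in mutants, with mutant 3 among the controls and a difference of −0.22 ± 0.11 (SE). Lrrc61, a leucine-rich repeat protein, had 8.15, 8.18, 8.43 and 8.09 in controls and 8.09, 7.96, 7.77 and 7.88 in mutants. Mutant 1 came close to control 4, and the difference of −0.29 ± 0.10 (SE) missed the threshold (limma, adjusted p = 0.315). The probe set that Lrrc61 shares with Rarres2, the gene of the chemoattractant chemerin, gave −0.16, and the one of Pdia4 and Mir704 −0.06. Sspo, the gene of the brain glycoprotein SCO-spondin, had a difference of 0.10. The neighbours Tmem176b and Tmem176a, ion channel genes of the membrane-spanning 4-domain family, were among the brightest members, at 11.80 and 11.01 in controls, and had differences of −0.05 and −0.08 that did not pass.

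Litters of the same genotype also differed from each other. The control litters differed in Xist as well, low in litter 1 and high in litter 2, so their gaps may follow either. The gap between the 2 control litters had a median of 0.08 over the members and reached 0.35, and the gap between the mutant litters had a median of 0.08 and reached 0.30. In 20 members the difference between genotypes exceeded both gaps, and in 36 it did not. The same count was not made over all genes. All 4 called members were among the first kind. The same values gave their calls, so this is no separate support. The wider of their litter gaps was 0.09 for Gimap9, 0.08 for Gimap4, 0.23 for Herc6 and 0.13 for Pyurf.

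The named genes leave out most of the interval, so the same test was read for every measured gene between Cntnap2 and Nap1l5 with Ezh2 and 10 Hoxa genes set aside. Of these 134 genes 4 were called, the members above, or 2.99%, against 0.852% of all genes. Of the 78 genes that were not listed 0 passed by limma. An unadjusted p under 0.05 was reached by 9 of them, or 11.5%, against 9.87% of all genes. Without overlap of the groups were 14.9% of the 134 and 8.97% of the 78, against 8.07% of all genes. The list had thus taken in every called gene. Among the unlisted genes 28 are vomeronasal receptors with a median log2 level of 4.42. Rny1, the gene of a small Y RNA 2 places after Ezh2, had the largest unlisted difference, −0.61, with an adjusted p of 0.206 by limma, and is named after its values were seen. Its values were 8.35, 8.51, 8.81 and 8.15 in controls and 8.13, 8.07, 7.48 and 7.68 in mutants, which do not overlap but scatter widely. Rny3, 1 place after Ezh2 and also named after its values were seen, had −0.27. Its groups overlapped, and it did not pass (limma, adjusted p = 0.366).

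The gene just past the last member was called as well. Fam13a, 143 places after Ezh2 and next to Nap1l5, fell by 0.61 ± 0.06 (SE), and its adjusted p by limma, 0.000729, was below that of any member. It encodes a protein with a RhoGAP domain. Its log2 values were 8.64, 8.75, 8.68 and 8.78 in controls and 8.09, 8.03, 8.19 and 8.10 in mutants, a wide gap with little spread. The gene just before the first member, 9430018G01Rik, had −0.12 and did not pass. Within the Hoxa cluster, between Skap2 and Evx1, Hoxa10 rose by 0.58, in the direction opposite to the called members.

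Positions on both sides of Ezh2 were then compared, beside the 0.852% called over all genes. Of the 25 genes nearest before Ezh2 0 were called, and of the 25 nearest after it 2, Gimap9 and Gimap4. Among the nearest 100 the counts were 0 before and 3 after, or 3%. Among the nearest 200 they were 2 before, or 1%, and 6 after, or 3%. Both counts after Ezh2 include Hoxa10, which rose, and without it they are 2 and 5, all lower. The genes before Ezh2, Plxna4 and Lncpint, rose and lay 132 and 139 places away. The nearest 10 on each side held 0 called genes of 20, with 2 without overlap before Ezh2 and 1 after it. Genes before Ezh2 were dimmer, with a median log2 level of 5.61 over the nearest 25 against 8.07 after it. Over the whole of chromosome 6, Ezh2 left out, 11 of 1200 genes, or 0.917%, were called. This placed it at rank 7 among the chromosomes, close to the share of all genes. On broader measures its shares were higher than those of all genes. An unadjusted p under 0.05 by limma was reached by 12.8% against 9.87%, and 10.3% against 8.07% had groups without overlap. Chromosome 8, at 13.9% and 12.1%, and chromosome 12, at 14.7% and 12.4%, were higher still on both. Within chromosome 6 the interval had 13.4% and 14.9%. The rest of the chromosome, Hoxa genes left out, had 12.7% and 9.66%. Of the 8 called genes within 200 places, 6 thus lay after Ezh2 and none among the nearest 10 on either side. Whether such a distribution differs from a random one was not tested.

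**Figure D4:**
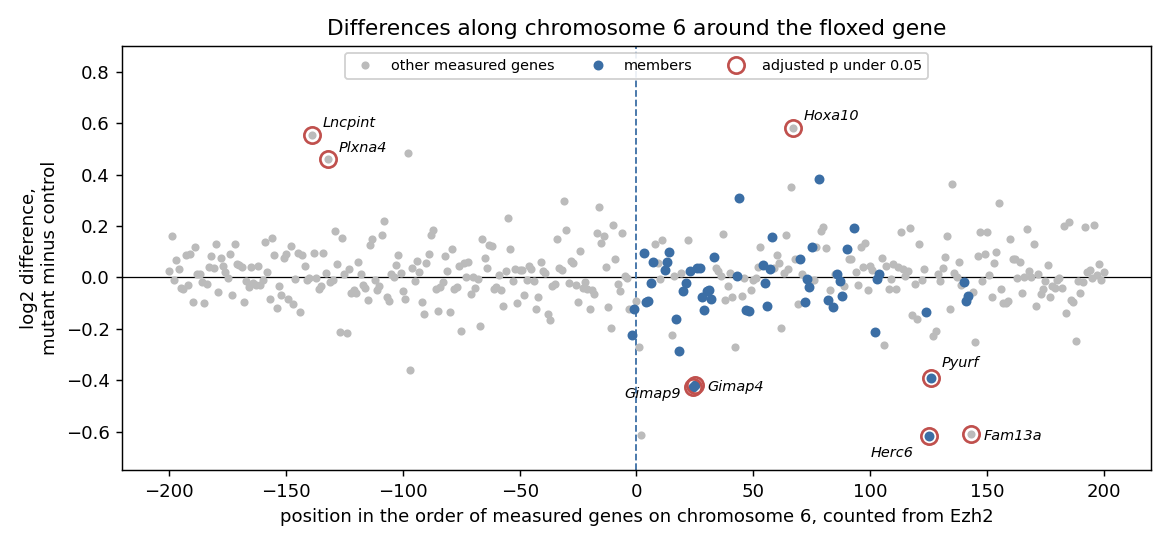
Log2 difference, mutant minus control, of each measured gene up to 200 places from Ezh2, against its place in the order of measured genes on chromosome 6. Blue points are members, grey points other genes, and red circles mark an adjusted p under 0.05. The 25 genes on either side of Ezh2 hold 0 and 2 circles, and those below 0 lie 24 to 143 places after it.

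**Figure D5:**
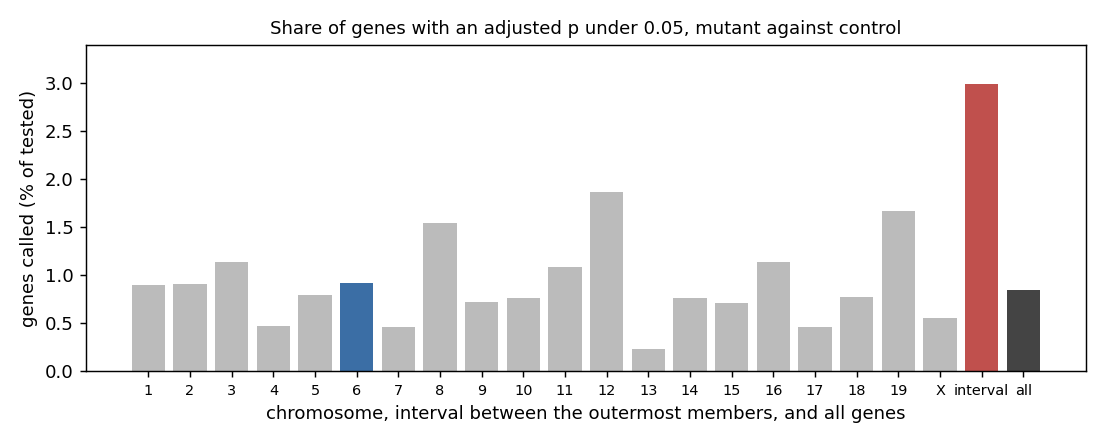
Percentage of tested genes with an adjusted p under 0.05 on chromosomes 1 to 19 and X, in the interval between the outermost members and over all genes. Chromosome 6 stands at 0.917%, the interval at 2.99% (4 of 134 genes) and all genes at 0.852%.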

How the data were processed

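Log2 expression per probe set was deposited by the authors. The submitters' processing notes name RMA, oligo and limma, without versions, and no genome build is named there. RNA, 100 ng per lung, went on 1-colour Affymetrix arrays, 1 per embryo, per the labels. RMA gives arrays like distributions and narrows the differences of dim genes. Precision is limited by the number of arrays.

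Of 41345 probe sets, 23521 were named by a single symbol of the platform annotation, which can be old, 1814 by several, and 16010 were not listed. RefSeq (GRCm38.p6) held 23328 of the first by gene number, changed 0 symbols and gave the gene order. The genotype term was tested in limma 3.58.1 (R 4.3.3), litter being a random block (consensus correlation 0.153), two-sided. A separate fit of the same form was run on simulated data.

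Members and lists were chosen with earlier results of these data known. Named are the called members, those without overlap, the 8 largest differences in each direction, the 5 members nearest to Ezh2 on each side (only 2 lie before it), the GIMAP and TMEM176 genes, members whose probe sets differ in sign, called genes of the interval, and Ezh2. Plots came from matplotlib 3.10.9 under Python 3.11.15. Alternatives covered litters, embryos left out, dim genes, scaling, probe sets, the variance prior, array weights, Xist and thresholds.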

Additional observations from a re-analysis of the deposited data

Results flagged for a closer look

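A single embryo stood far from the other 3 of its genotype in 5 of 112 groups of 4 values, and about 1 in 20 groups, or 5.6, would by chance. For Herc6 the lowest was mutant 3, at a log2 value of 7.64 against 8.03 for the next, and for Plekha8 it was mutant 3 again, at 8.55 against 8.81. Control 1 was highest for Sspo, at 7.05 against 6.87. Control 4 was highest for Ppm1k, at 8.88 against 8.58. Mutant 2 was lowest for Znrf2, at 8.98 against 9.02.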

How the results depend on the processing

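Herc6, Gimap9, Gimap4 and Pyurf stayed lower in mutants under every alternative run. Members called lower numbered 1 with littermates averaged, without litter 2, without litter 4 and at an adjusted p of 0.01, and 2 without litter 1, with all probe sets tested and in the embryos with high Xist only. The interval gave the same counts. Chn2, 1 member, was called higher, as 1 gene of the interval, without the litter block, without litter 4, with quantile normalization, with a trended robust prior, with array weights, at an adjusted p of 0.1 and, chosen after seeing the data, without control 3 and mutant 3. With Xist as a covariate 1 member and 2 interval genes were higher and 8 interval genes lower. In the main fit, 2 genes were lower within 25, 50 and 100 genes on each side of Ezh2. Within 200, 5 were lower, and 2 were higher with Hoxa genes left out.

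The counts of all genes called higher and of all genes called lower were 190 and 95 without the litter block, 65 and 33 with litter means, 98 and 90 without litter 1, 75 and 23 without litter 4, 77 and 26 with all probe sets, 221 and 105 with array weights, 361 and 313 with Xist, 79 and 71 with high Xist only, 71 and 24 at 0.01, and 195 and 96 at 0.1. Members without overlap numbered 16 lower without litter 1, 15 without litter 2, 14 without litter 4 and 14 without control 3 and mutant 3. Without litter 3 they numbered 7 higher and 16 lower. Leaving out embryos can only keep or raise these counts, because groups that are already apart stay apart. The share over all genes was not taken for these settings, so the rise says nothing particular about the members. Centred arrays gave 1 higher and quantile normalization 2. The counts at 0.01 and 0.1 differ from the main ones by the threshold alone. The cause of the other changes was not tested.

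Leaving out 1 embryo at a time gave 0 to 1 members called higher and 1 to 4 lower, the same for the interval, 73 to 157 genes higher and 28 to 75 lower, and 4 to 5 members without overlap higher and 9 to 12 lower. The counts without overlap were again not made over all genes. With the replicate block 0 members were higher and 4 lower, and 140 and 55 genes. Same-numbered embryos did not deviate together (correlations of −0.27 to 0.03). Known littermates had correlations of only −0.22 to 0.09, so this measure cannot decide whether the numbers pair embryos. No litter held both genotypes, so same-numbered embryos were not littermates.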
